A study of Mus musculus with 2 samples.

Results

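The miR-15 and miR-16 family was followed here through 5 miRNA genes, Mir15a, Mir16-1, Mir15b, Mir16-2 and Mir195a, out of 1973 miRNA genes counted in the newborn mouse stomach. They were chosen by symbol, and each was found by its Ensembl identifier in the mouse GENCODE annotation. The tissue was whole stomach of B6NCrl mice on the day of birth (day 0), with no treatment or engineered allele named in the labels and with sex not collected. RNA below 30 nt was sequenced from 1 stomach of each of 2 pups of the same dam. Both pups belong to 1 group, so levels are given with the spread between littermates, and any test between the pups compares these 2 libraries only.

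An miRNA is a short RNA that guides Argonaute proteins to messenger RNAs, chiefly through its seed, bases 2 to 8 from the 5′ end. A gene's transcript folds into a hairpin, and either side of it can yield a mature miRNA, called the 5p or the 3p arm. The miR-15 and miR-16 family is known for restraining the cell cycle and survival, through targets such as the cyclin genes Ccnd1 and Ccne1 and the anti-apoptotic gene Bcl2. Its founding pair, miR-15a and miR-16-1, lies in a region often lost in human chronic lymphocytic leukaemia, and in human gastric cancer cells miR-15b and miR-16 act on BCL2.

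The 5p arms are printed because their common seed is what makes these genes a family. Sequences are from the RefSeq miRNA table on GRCm38.p6, which matched all 5 genes, and capitals mark the seed.
miR-15a-5p: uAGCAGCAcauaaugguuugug
miR-15b-5p: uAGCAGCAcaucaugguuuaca
miR-16-5p: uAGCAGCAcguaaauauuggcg
miR-195a-5p: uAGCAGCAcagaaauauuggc
The 5 genes encode 4 distinct 5p arms, which are identical over their first 9 bases. Of 1738 mature arms in the table, 7 (0.403%) begin with those 9 bases. Beyond them the arms fall into pairs. miR-15a-5p and miR-15b-5p are identical at 18 of 22 positions, counted from 1 at the 5′ end of miR-15a-5p, and differ by A12C, G20A, U21C and G22A. miR-16-5p and miR-195a-5p are identical at 19 of the 21 positions that both have, and differ by G10A and U11G, counted from the 5′ end of miR-16-5p. Across these pairs, miR-15a-5p is alike at 16 of 22 positions with miR-16-5p and at 15 of 21 with miR-195a-5p. For miR-15b-5p the values are 14 of 22 with miR-16-5p and 14 of 21 with miR-195a-5p. The 3p arms carry 5 different seeds, so the common seed belongs to the 5p arms.

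The miR-16 genes differ from the other 3 in how reads can be counted, because Mir16-1 and Mir16-2 encode the same miR-16-5p. Their annotated hairpins are shown with the stretch that both contain in capitals.
Mir16-1 hairpin: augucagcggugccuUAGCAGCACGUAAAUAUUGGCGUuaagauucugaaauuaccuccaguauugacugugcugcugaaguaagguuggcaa
Mir16-2 hairpin: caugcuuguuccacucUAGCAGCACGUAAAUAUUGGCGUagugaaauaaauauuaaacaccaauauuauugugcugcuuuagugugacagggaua
The common stretch of 23 nt holds the whole of miR-16-5p and 1 base beyond its 3′ end. A read of miR-16-5p within that stretch has 2 equally good places in the genome, and only a read with at least 1 base outside it can be told apart between these hairpins. The 3p arms differ, as these lines show with capitals for the seed.
miR-16-1-3p: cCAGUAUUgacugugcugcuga
miR-16-2-3p: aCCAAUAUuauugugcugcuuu
Of the 10 arms of the 5 genes, 8 occur at 1 gene in the table, and the exceptions are the copies of miR-16-5p. No other pair among the family, and no other annotated hairpin, had a stretch of 20 nt in common with a family gene. The longest such stretch outside the miR-16 pair was 16 nt, between Mir195a and Mir195b.

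The 5 genes lie at 3 loci, given here in GRCm38 coordinates. Mir15a (ENSMUSG00000093007.1) occupies chromosome 14 from 61632027 to 61632110, minus strand, in an intron of the long noncoding RNA gene Dleu2. Mir16-1 (ENSMUSG00000092995.1), at 61631880 to 61631972, is 54 nt from it and overlaps an annotated exon of Dleu2. Mir15b (ENSMUSG00000065580.1) occupies chromosome 3 from 69009772 to 69009835, plus strand, and Mir16-2 (ENSMUSG00000065606.1) from 69009902 to 69009996, 66 nt further on. Both are in an intron of Smc4, which encodes a condensin subunit needed for mitotic chromosomes. The position of Mir15b is that of its version in GENCODE M21, ENSMUSG00000065580.2, and the interval counted under release M4 may differ. Mir195a (ENSMUSG00000065411.2) occupies chromosome 11 from 70235042 to 70235135, plus strand, with no host gene on its strand. Its neighbour there is Mir497, 241 nt away on the same strand.

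All 5 genes passed the detection minimum of 10 counts in each library, as did 15.5% of all genes (305 of 1973). Counts are reads on the gene's own strand, and levels are counts per 1000000 own-strand counts (CPM). The totals were 4463355 in pup 1 and 3454655 in pup 2, so that a count of 0 would allow up to 0.672 and 0.868 CPM, for counting error only. No family gene had a read on the opposite strand in either pup. The stomach's own lists were present, with 3 of 3 squamous epithelial, 4 of 4 glandular epithelial and 2 of 2 smooth muscle genes detected. Some genes of other tissues were present too. The hepatocyte gene Mir122 was detected at 230.1 ± 35.2 CPM, as were 2 of 3 skeletal muscle genes, with Mir206 at 97.5 CPM in pup 1 and 265 CPM in pup 2 (log2 ratio -1.34 after TMM scaling, called between the pups), while 0 of 3 pancreatic genes passed in both libraries. The part of those tissues in the family's counts was not tested.

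Mir15a was the highest of the family, with 6870 counts in pup 1 and 6497 in pup 2. These correspond to 1539 CPM (exact Poisson 95% interval 1503 to 1576) in pup 1 and 1881 CPM (1835 to 1927) in pup 2. Its mean of 1709.9 ± 241 CPM (SD, n = 2) placed it at rank 62 of all genes, above 79.7% of detected genes. Mir16-1, its partner in Dleu2, had 6075 and 5599 counts, or 1361 and 1621 CPM, and averaged 1491 ± 184 CPM at rank 68. In both genes pup 1 was the lower library, and its level in Mir15a lay below that of pup 2 in Mir16-1, so the CPM ranges of the genes overlap across pups.

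Mir195a came next, with 5841 counts in pup 1 and 4514 in pup 2. Its levels were 1309 CPM (interval 1275 to 1343) and 1307 CPM (1269 to 1345), a mean of 1308 ± 1.42 CPM at rank 75. Scaled by total counts, the pups differed there by less than the counting interval of either library, but with TMM library sizes the SD was 67.5 CPM around a mean of 1309 CPM. Mir15b had 3404 and 2934 counts, or 763 and 849 CPM, and averaged 806 ± 61.3 CPM at rank 92. Mir16-2 was the lowest, with 1500 and 1456 counts, or 336 and 421 CPM, and averaged 379 ± 60.4 CPM at rank 119. Even so, it exceeded 61.0% of the detected genes, whose median was 166 CPM.

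**Figure D1:**
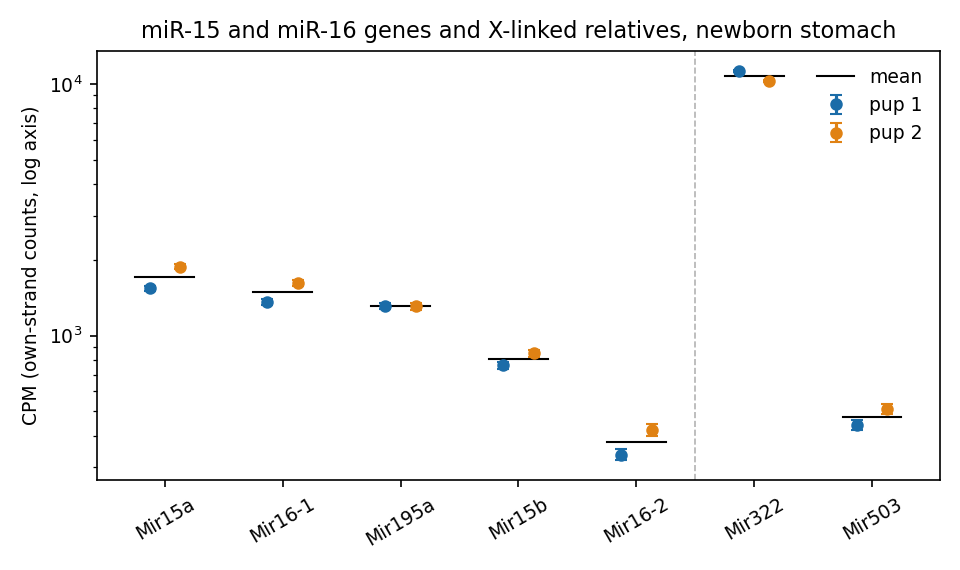
Level of each family gene and of the X-linked genes Mir322 and Mir503 (CPM, log axis), with a point for each pup (pup 1 left of pup 2), exact Poisson 95% intervals as error bars and a line at the mean. The family genes run from Mir15a at 1709.9 CPM down to Mir16-2 at 379 CPM, Mir195a is near 1308 CPM in both pups when scaled by total counts, and Mir322 stands above the whole family at 10751 CPM.

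The order Mir15a, Mir16-1, Mir195a, Mir15b, Mir16-2 was the same in pup 1 and in pup 2. It is an order of placed reads, as Mir16-1 and Mir16-2 lack any miR-16-5p read that maps to both loci. For each of the 10 pairs of family genes, the mean log2 ratio within a library exceeded the SD of that ratio between the pups. The smallest p that an exact permutation test allows with 2 libraries is 0.5, so no test was run on these ratios. The closest call was Mir16-1 over Mir195a, with a log2 ratio of 0.18 ± 0.18 (SD, n = 2). Mir16-1 exceeded Mir195a 1.04-fold in pup 1 (exact 95% interval 1.00 to 1.08) and 1.24-fold in pup 2 (1.19 to 1.29). The widest gap was Mir15a over Mir16-2, 4.52-fold, with a log2 ratio of 2.18 ± 0.03.

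Summed by locus, the Dleu2 pair led. Mir15a and Mir16-1 together held 2900 CPM in pup 1 and 3501 CPM in pup 2, which was 54.6% and 57.6% of the family's counts. The Smc4 pair held 1099 and 1271 CPM, or 20.7% and 20.9% of the family, and Mir195a held 24.7% and 21.5%. The Dleu2 pair exceeded the Smc4 pair 2.70-fold, by a log2 ratio of 1.43 ± 0.04, with 2.64-fold in pup 1 and 2.76-fold in pup 2. The Smc4 pair and Mir195a were closer than the SD over the pups, at a log2 ratio of -0.15 ± 0.15. The 5 genes together made up 0.531% of own-strand counts in pup 1 (exact binomial 95% interval 0.524% to 0.538%) and 0.608% in pup 2 (0.600% to 0.616%). The sums of both pairs and of the family lack any miR-16-5p read that maps to both loci. These shares therefore describe placed reads only, and the intervals do not cover the missing ones.

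The paralogs at the Dleu2 and Smc4 loci were compared gene by gene. Mir15a, which has an arm of its own, exceeded Mir15b 2.11-fold, by a log2 ratio of 1.08 ± 0.09. The miR-16 genes, which share their 5p arm, differed more, with Mir16-1 over Mir16-2 at 3.95-fold (log2 ratio 1.98 ± 0.05). Counts of the miR-16 genes cannot hold reads of miR-16-5p that map to both loci, so this ratio compares the 3p arms and any 5p reads that reach beyond the common stretch. The tables do not separate arms.

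Reads that mapped to several places numbered 1873722 in pup 1 and 1425289 in pup 2, or 26.0% and 25.7% of all reads. They outnumbered the counts of both miR-16 genes together (7575 in pup 1, 7055 in pup 2) 247-fold and 202-fold. Which miRNAs they came from is not given in the tables, so the level of miR-16-5p in this tissue cannot be read from the gene counts, and the levels of Mir16-1 and Mir16-2 count only reads that could be placed. No arm of Mir15a, Mir15b or Mir195a is encoded by another gene of the table. Other genes of the same kind give a scale. Only counted genes that the RefSeq table also holds could be sorted by arm. Of these, 53 have 1 of 2 arms in common with another gene in the table, 34 of them (64.2%) detected, with a median of 41.1 CPM over those detected and 16.4 CPM over all 53. Mir16-1 was second and Mir16-2 at rank 9 among the 53. A further 34 genes have every arm in common with another gene. Of those, 6 (17.6%) were detected, with a median of 45.4 CPM over those detected and 0 CPM over all 34. Of 829 genes with no arm in common with another gene, 242 (29.2%) were detected, with a median of 184 CPM over those detected and 0.257 CPM over all 829, so the order of the medians turns with the genes included.

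**Figure D2:**
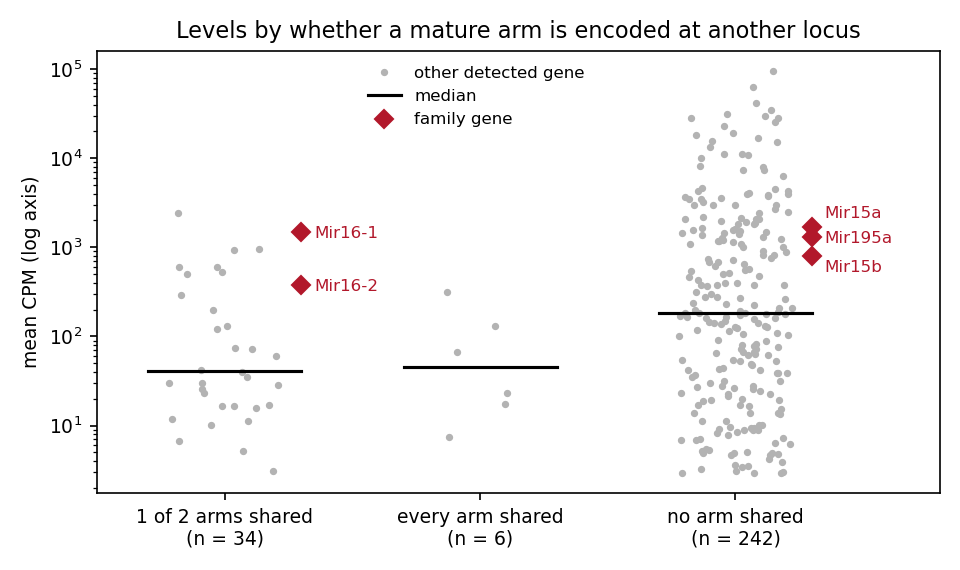
Mean level over the pups (CPM, log axis) of detected genes in the RefSeq table, by whether a mature arm is also encoded by another gene, with family genes as diamonds and a line at the median of each class. Mir16-1 at 1491 CPM and Mir16-2 at 379 CPM lie above the median of 41.1 CPM of their class, and Mir15a, Mir195a and Mir15b lie above the median of 184 CPM of genes with no arm in common.

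The partners within each locus were compared too, and only those of the Dleu2 locus stood close together. Mir15a exceeded Mir16-1 1.13-fold in pup 1 (exact 95% interval 1.09 to 1.17) and 1.16-fold in pup 2 (1.12 to 1.20), a log2 ratio of 0.20 ± 0.03. Mir15b exceeded Mir16-2 2.27-fold in pup 1 (2.13 to 2.41) and 2.01-fold in pup 2 (1.89 to 2.15), a log2 ratio of 1.10 ± 0.12. In both loci the miR-15 gene was the higher partner, and the miR-16 partner is the one whose 5p reads can be missing. Across the annotation, 55 pairs of neighbouring detected genes on 1 strand lay at most 1000 nt apart, and their higher gene exceeded the lower by a median of 6.25-fold. The ratio was over 2-fold in 44 of these pairs (80.0%). Mir15a over Mir16-1 had the third smallest ratio of the 55, and Mir15b over Mir16-2 ranked 13 from the smallest. Some of the other pairs, at both ends of this order, also hold genes that have an arm in common with another gene. Their ratios can likewise lack reads that map to several places, so these ranks compare placed reads only.

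**Figure D3:**
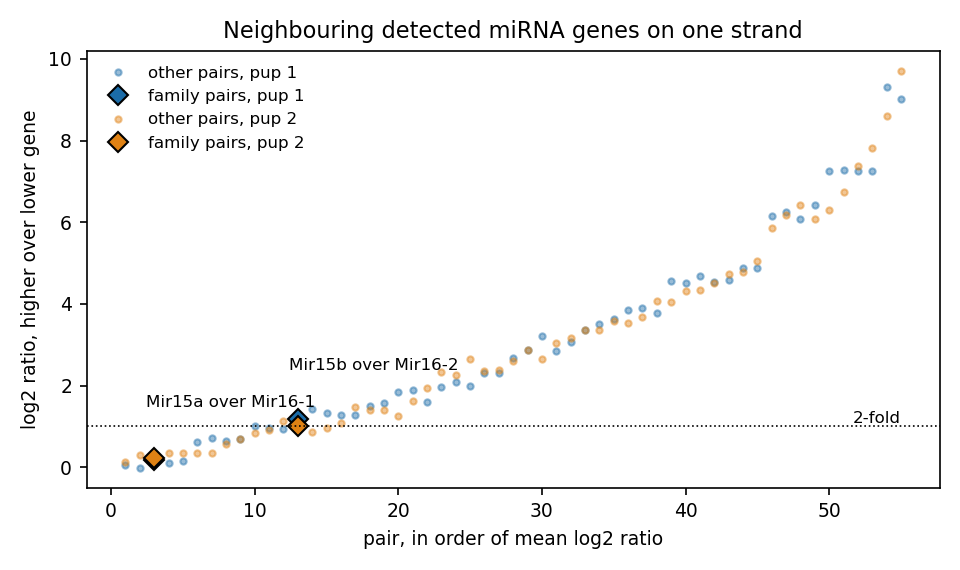
Log2 ratio of the higher over the lower gene for 55 pairs of neighbouring detected miRNA genes on 1 strand, in order of the mean, with a point per pup and the family pairs as diamonds. Mir15a over Mir16-1 (0.18 in pup 1, 0.21 in pup 2) lies near the low end, and Mir15b over Mir16-2 (1.18 in pup 1, 1.01 in pup 2) lies just above the dotted 2-fold line.

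The pups were compared for each of the 305 detected genes by a two-sided exact binomial test against library sizes scaled by TMM, with Benjamini-Hochberg adjustment over all 305. Calls required both an adjusted p under 0.05 and at least a 1.5-fold ratio. None of the 5 family genes was called, against 2.95% of the genes tested (9 of 305), and none was called by edgeR with its common dispersion, against 0.328% (1 of 305). By adjusted p alone, which covers counting error only, 4 of the 5 passed, beside 52.1% of all genes. Of these, 3 were lower in pup 1, as were 24.3% of all genes, and 1 was higher, as were 27.9%. An edgeR test with a common dispersion was also run. Its dispersion was estimated from these same 2 pups taken as 1 group, so it already holds the difference between them. That test therefore cannot decide whether the pups differ, and no conclusion is drawn from it.

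The 4 genes of the Dleu2 and Smc4 loci had negative log2 ratios of pup 1 over pup 2, and Mir195a had a positive one. Mir15a had a log2 ratio of -0.19 (exact 95% interval -0.24 to -0.14; adjusted p = 5.8e-13, exact binomial test), and Mir16-1 had -0.15 (-0.20 to -0.10; adjusted p = 1.1e-07). Mir16-2 had -0.22 (-0.33 to -0.12; adjusted p = 9.1e-05, exact binomial test) and Mir15b had -0.05 (-0.12 to 0.02; adjusted p = 0.24). Mir195a had 0.11 (0.05 to 0.16; adjusted p = 6.9e-04, exact binomial test). Scaled by total counts instead, the median gene shifted to -0.13, against -0.02 after TMM, and Mir195a stood at 0.00, while the other 4 kept negative values between -0.33 and -0.16. The genes passing by adjusted p alone changed with it, as Mir195a was lost (adjusted p = 0.97, exact binomial test) and Mir15b was gained (adjusted p = 6.8e-05, exact binomial test). Under that scaling 4 of the 5 were lower in pup 1, beside 33.4% of all genes, and 0 higher, beside 14.4%. After TMM scaling, the absolute ratios of the family genes lay within the range of ordinary genes. Of detected genes, 54.1% then had a smaller absolute ratio than Mir15a and 63.9% a smaller one than Mir16-2. The ratio of Mir15a over Mir195a was 1.18 in pup 1 and 1.44 in pup 2, whereas that of Mir15a over Mir16-1 was 1.13 and 1.16.

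**Figure D4:**
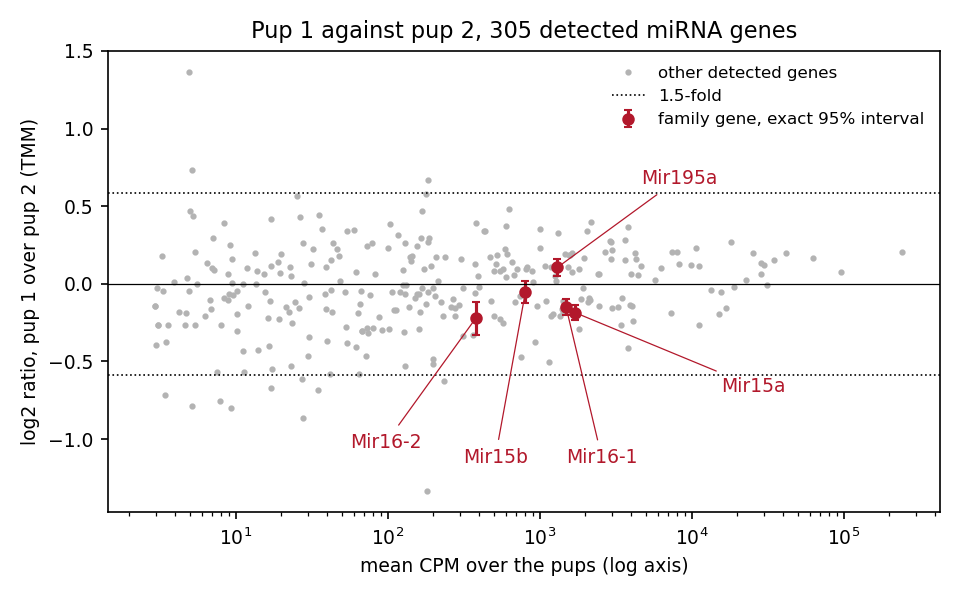
Log2 ratio of pup 1 over pup 2 after TMM scaling, against mean CPM (log axis), for 305 detected genes, with the family genes in red with exact 95% intervals and dotted lines at a ratio of 1.5. All 5 family genes lie between the lines, Mir195a at 0.11 and the other 4 between -0.22 and -0.05.

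The genes next to each family gene in level are given for context. Mir15a stood between Mir149 (1811 ± 4.37 CPM) and Mir18 (1641 ± 73.9 CPM), both within 1 SD of Mir15a. Mir16-1 stood between Mir484 (1533 ± 5.87 CPM) and Mir101b (1469.9 ± 63.8 CPM). Mir195a lay between Mir434 (1321 ± 147 CPM) and the mesenchymal gene Mir140 (1273 ± 52.0 CPM). Mir15b lay just below the hypoxia-induced gene Mir210 (815 ± 2.58 CPM) and above Mir301 (753 ± 209 CPM). Mir16-2 lay between Mir341 (381 ± 54.2 CPM) and Mir25 (376 ± 29.6 CPM), a member of a cluster that promotes proliferation. No family gene differed from its neighbours in level by more than the larger SD of the pair. The neighbours were chosen for the closest means, so small differences follow from that choice.

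The seed AGCAGCA is carried by 11 genes of the table, 6 of them outside the family as defined here. Mir6342, Mir6353, Mir6419 and Mir195b had no count in either pup. The other relatives that gave reads are printed here with their seed in capitals, with Mir503, whose arm matches bases 2 to 7 only.
miR-322-5p: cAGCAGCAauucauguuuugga
miR-497a-5p: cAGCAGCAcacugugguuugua
miR-503-5p: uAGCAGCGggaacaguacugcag
miR-322-5p and miR-497a-5p begin with C, where the family's 5p arms begin with U. Mir322, which with Mir503 forms an X-linked cluster induced when muscle cells leave the cell cycle, had 50115 counts in pup 1 and 35491 in pup 2, or 10751 ± 675 CPM. It exceeded the 5 family genes together 2.11-fold in pup 1 and 1.69-fold in pup 2, although their sum lacks any miR-16-5p read that maps to both loci. Mir503 averaged 476 ± 49.1 CPM.

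Mir497 has no row of its own in the tables, and its reads can be seen as those opposite to Mir497b, which overlaps it. There were 3540 such reads in pup 1 and 2942 in pup 2, while Mir497b had 0 and 1 on its own strand. Mir195a, its neighbour, exceeded them 1.65-fold in pup 1 and 1.53-fold in pup 2 (log2 ratio 0.67 ± 0.07). Of all reads counted for genes with this seed, the 5 family genes gave 30.6% in pup 1 and 35.3% in pup 2. Mir322 gave 64.8% and 59.7%, and the reads opposite to Mir497b gave 4.58% and 4.95%. These are shares of gene counts, which pool both arms, while the seed is on the 5p arms only. They also lack any miR-16-5p read that maps to both loci, so they do not divide the miRNAs that carry the seed.

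Other miRNA genes known for acting on the cell cycle were listed for context, and 24 of the 27 found in the tables were detected. They ranged from 8.92 CPM for Mir34b to 42007 CPM for Mirlet7g, with a median of 499 CPM, beside 1308 CPM for the 5 family genes and 166 CPM for all detected genes. Several listed genes, like the miR-16 genes, have an arm in common with another gene. Their counts can lack reads that map to several places, so the medians do not rank the miRNAs themselves. The highest were Mirlet7g, Mirlet7i (28544 ± 539 CPM), Mir26b (28538 ± 463 CPM) and Mir322. Between the pups, 0 of the 24 were called by the exact binomial test, and by adjusted p alone 9 were lower and 6 higher in pup 1. The shares over all 305 genes were 2.95% called by the exact binomial test, and by adjusted p alone 24.3% lower and 27.9% higher.

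miR-15 and miR-16 are also plentiful in blood cells, so the blood genes are given beside the family. The erythroid genes Mir451a and Mir144, both of the listed erythroid genes found in the tables, summed to 39.7 CPM in pup 1 and 34.7 CPM in pup 2. The leukocyte genes had 4 of 5 detected and summed to 624 CPM in pup 1 and 647 CPM in pup 2, with the myeloid gene Mir223 at 469.9 ± 15.4 CPM. Mir142b, the fifth, had no count on its own strand, but 2120 reads in pup 1 and 1673 in pup 2 lay opposite to it, where the leukocyte gene Mir142 overlaps it. Adding those reads was an alternative chosen after seeing the data. With them the leukocyte sum was 1075 per 1000000 counts on both strands in pup 1 and 1107 in pup 2, 1.76 and 1.75 times the sum without them. In a whole stomach, more cells of a type and more RNA per cell cannot be told apart, and the part of blood in the family's counts was not tested.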

How the data were processed

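Each library's deposited file is a headerless table of raw read counts per miRNA gene, not normalized. Per the accompanying description files, the tables used assembly mm10 and annotation release M4. Which aligner and counter made them is not given in the sources used here. The strand column with the larger total was used, which held 97.7% (pup 1) and 97.8% (pup 2) of gene counts. Rows for unmapped, multi-mapped (26.0% and 25.7% of reads), unassigned and ambiguous reads stayed out of totals. Names and positions came from GENCODE M21, which matched 1894 of 1973 identifiers. Sequences came from RefSeq (GRCm38.p6), and longest common stretches from M21 transcripts. Counts were not divided by length. TMM factors and a common dispersion came from edgeR 4.0.16 (R 4.3.3), and alternative size factors from DESeq2 1.42.0. A pup has 1 library, so exact binomial tests replaced quasi-likelihood tests. They were checked on simulated data. Python 3.11.15, scipy 1.17.1 and pandas 2.3.3 were used. The genes and lists were chosen with earlier results of these data known. The genes named are the family, its seed relatives, its neighbours in level, the highest of the cell-cycle list, and marker genes. PCR reads carry no molecular identifiers, so intervals cover counting error only. Alternatives covered scaling, denominator, strand, filters and each pup alone.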

Additional observations from a re-analysis of the deposited data

Results flagged for a closer look

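Reads on the strand opposite to Mir497b numbered 3540 in pup 1 and 2942 in pup 2, outside the own-strand counts on which the levels rest. They lie far above the 3 counts that a count of 0 allows, and at the position of Mir497, the neighbour of Mir195a.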

How the results depend on the processing

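The order of the 5 genes was the same in either pup alone and per nt of hairpin. No denominator could change it, because a denominator scales all genes of a library alike. Nor could counting without regard to strand, because the 5 genes had no opposite-strand reads. Reads that map to several places were left out of the gene counts throughout. Placing them could change the levels of Mir16-1 and Mir16-2, the order and the family's share, which was not tested. Over all reads, levels in reads per 1000000 were 1063 for Mir15a, 927 for Mir16-1, 813 for Mir195a, 501 for Mir15b and 236 for Mir16-2, and the family's share was 0.354%. Without the most abundant gene in the total they were 2253, 1965, 1725, 1063 and 499 CPM in the same order, and the share was 0.750%, against 0.569% ± 0.0545. Counted without regard to strand, Mir195a stood at 1279 CPM. Per nt of hairpin, an alternative chosen after seeing the data, log2 ratios became 0.34 for Mir15a over Mir16-1, 0.69 for Mir15a over Mir15b, 2.35 for Mir15a over Mir16-2, 0.34 for Mir16-1 over Mir15b, 0.15 for Mir195a over Mir15b and 1.67 for Mir15b over Mir16-2. These shifts follow from the hairpin lengths and denominators. Scaled by total counts, 16 genes were called between the pups in place of 9, with no family gene among them. In all, 99 values stayed on their side of the threshold or within the spread and 22 moved, but many of the 99 could not have moved. With 2 pups, the value of 1 pup always lies within 1 SD of their mean. Strand could not change ratios between family genes, which had no opposite-strand reads. The tally is therefore no measure of robustness. The pup comparison cannot leave out a pup. No paired analysis was possible because the series has 1 group.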
